A study of Arabidopsis thaliana with 12 samples.

Results

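Transcript levels of 10 genes of chlorophyll synthesis and its regulation were followed across 4 Arabidopsis thaliana genotypes. The genes were GLK1 (AT2G20570), GLK2 (AT5G44190), HEMA1 (AT1G58290), CHLH (AT5G13630, also GUN5), GUN4 (AT3G59400), CHLI1 (AT4G18480), PORA (AT5G54190), PORB (AT4G27440), PORC (AT1G03630) and CAO (AT1G44446). They were picked by identifier from the 34262 genes of the deposited count table, and all 10 were among the 22351 genes with counts high enough to test. The samples were rosette leaves of wild type Col-0, of the ka120 mutant in the Col-0 background, and of ka120 pad4 and ka120 ndr1 double mutants, with 3 RNA sequencing libraries each. Plants were untreated and 3 weeks old, and had been kept in soil at 22 °C in days of 16 h light and 8 h dark. All 3 mutant genotypes carry ka120, and single pad4 and ndr1 mutants were not analysed here. Neither the alleles nor the hour of harvest were stated in the labels. The labels do not tell whether libraries of 1 genotype stem from different plants, and the p-values below therefore measure the spread between these libraries, which may be technical.

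Chlorophyll is made in the chloroplast from glutamate, through 5-aminolevulinic acid and protoporphyrin, the branch point with heme. Glutamyl-tRNA reductase, encoded mainly by HEMA1, sets the supply of 5-aminolevulinic acid, and magnesium chelatase directs protoporphyrin into the chlorophyll branch. GLK1 and GLK2 are nuclear transcription factors with overlapping functions that activate genes of chlorophyll synthesis and of the light-harvesting antenna in leaves. KA120 is a nuclear transport receptor of the importin-beta family, and the study's title concerns its negative role in effector-triggered immunity. PAD4 and NDR1 are immune signalling components used by different classes of intracellular immune receptors.

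Library totals were 68436911 to 85884840 counts. Levels are normalised counts (CPM), a gene's count relative to the library size after scaling by edgeR's TMM factors. These factors spanned 0.843 to 0.874 for the Col-0 libraries and 1.07 to 1.09 for those of ka120. KA120 itself (AT3G08960, a locus taken from background knowledge) had 29.2 ± 4.48 CPM (SD, n = 3) in Col-0 and 5.28 ± 0.663 CPM in ka120. PAD4 had 5.13 ± 0.482 CPM in Col-0, 85.1 ± 27.1 CPM in ka120 and 12.7 ± 5.82 CPM in ka120 pad4. NDR1 had 0, 12 and 8 counts in the ka120 ndr1 libraries against 13.1 ± 1.52 CPM in ka120. The 3 mesophyll markers RBCS1A, CAB3 and RCA had the highest sum of the cell type marker lists in every library, at 41730.2 to 43472 CPM in Col-0, 22877 to 26184 CPM in ka120, 27912 to 34288 CPM in ka120 pad4 and 26629 to 27735 CPM in ka120 ndr1. All 3 fell in ka120, in step with the genes below. In that comparison with Col-0, 27% of all genes were lower. Of the other markers, 2 of 3 epidermal and 2 of 3 guard cell genes fell, with sums of 723 to 752 CPM against 523 to 610.3 CPM and 57.3 to 61.5 CPM against 48.5 to 56.1 CPM. Of the 2 phloem markers 1 fell, with sums of 248 to 291 CPM against 124 to 143 CPM, while the summed meristem, root and flower markers reached at most 18.3 CPM in any library. By library totals alone, a scale on which the median over all genes was higher in ka120, the mesophyll and phloem counts stood, whereas 0 of the epidermal and guard cell genes were lower and 1 of each was higher. The part of leaf makeup in the results was not tested, and in bulk leaves fewer cells of a type and less RNA per cell cannot be told apart.

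The ka120 mutant had lower transcript levels along the chlorophyll pathway. In ka120 against Col-0, 8 of the 10 genes fell and 0 rose at an adjusted p under 0.05 (edgeR quasi-likelihood test, Benjamini-Hochberg over all 22351 genes), where 27% of all tested genes were lower and 28% higher. The 8 were GLK2, HEMA1, CHLH, GUN4, CHLI1, PORB, PORC and CAO, and in each of them all 3 ka120 libraries lay below all 3 Col-0 libraries, as in 31% of all genes. GLK1 and PORA did not pass. The median change of the 10 was -0.79 on the log2 scale, against 0.017 over all genes. With library totals alone as the scale, the median over all genes moved to 0.346, the same 8 genes were still lower with a median of -0.47 over the 10, and GLK1 (0.35, adjusted p = 0.00269) and PORA (0.66, adjusted p = 0.0481) then passed as higher.

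**Figure D1:**
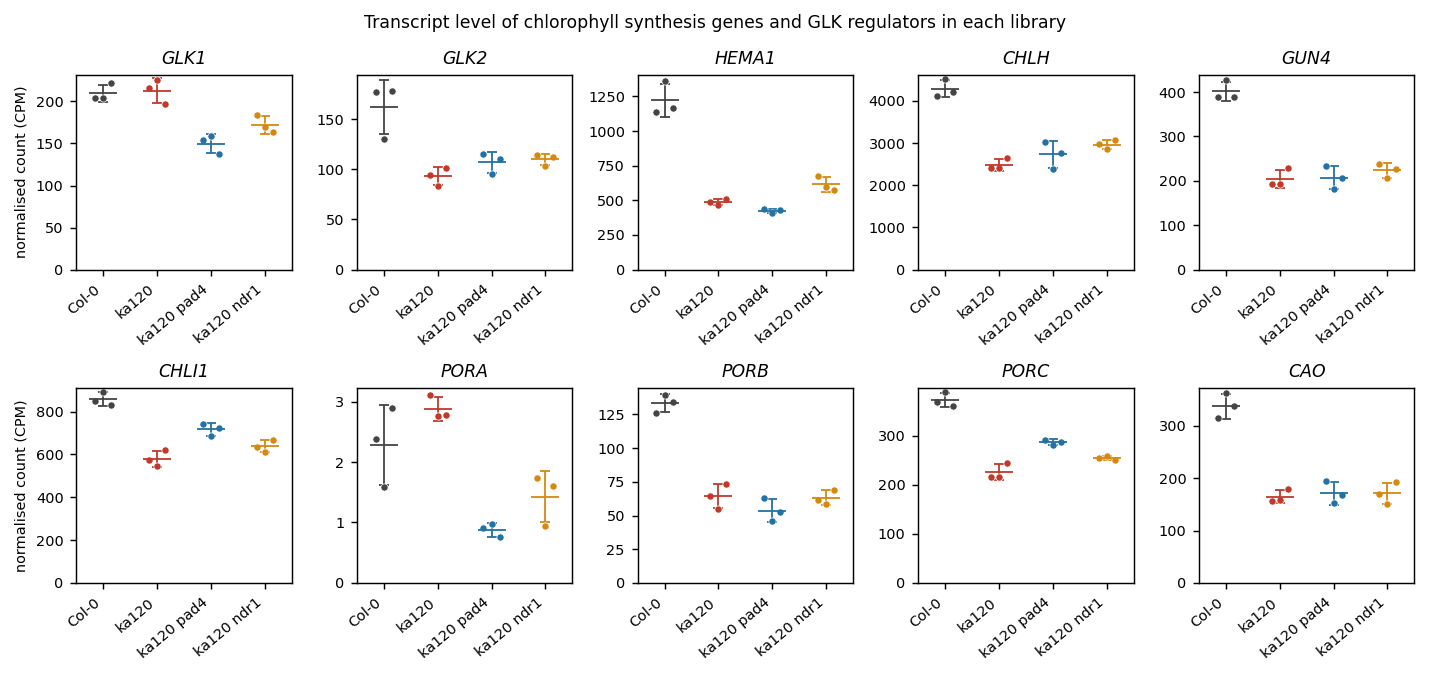
Normalised counts (CPM, linear axes from 0) of the 10 genes in each of the 12 libraries, by genotype. Points are libraries, horizontal lines are means and bars are SD of 3. HEMA1 stands at 1139.7 to 1360.0 CPM in Col-0 and at 409 to 676 CPM in the 9 mutant libraries, while the libraries of GLK1 overlap between ka120 and Col-0.

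Of the 2 regulators, GLK2 (chromosome 5, 17798262 to 17800926 in TAIR10.1) was measured at 177, 131 and 179 CPM in the Col-0 libraries and at 94.5, 83.9 and 101 CPM in ka120. Each ka120 library was below the lowest Col-0 library, although the second Col-0 library stood well under the other two. Its log2 fold change was -0.80 ± 0.12 (approximate SE, as for all changes below; edgeR adjusted p = 0.000104). The double mutants gave 116, 95.6 and 110.4 CPM with pad4 and 114, 103 and 112 CPM with ndr1, so both stood between ka120 and Col-0. The order of the means was Col-0 (162 ± 27.2), ka120 ndr1 (109.9 ± 5.69), ka120 pad4 (107 ± 10.4) and ka120 (93.3 ± 8.83), and only Col-0 differed from its neighbour by the test.

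GLK1 (chromosome 2, 8855302 to 8857758, named GPRI1 in the reference) behaved differently. Its libraries held 204, 204 and 221 CPM in Col-0 and 216, 226 and 196 CPM in ka120, ranges that overlap. The log2 change was 0.021 ± 0.076 (adjusted p = 0.837), with an approximate 95% interval of -0.14 to 0.19. In ka120 pad4 the values were 154, 159 and 137 CPM and in ka120 ndr1 they were 184, 169 and 164 CPM, all below every library of Col-0 and ka120. On the TMM scale GLK1 was thus high in ka120 and Col-0, lower in ka120 ndr1 and lowest in ka120 pad4. The 2 double mutants did not differ by the test (adjusted p = 0.188). This order depends on scale. By library totals alone GLK1 was higher in ka120 than in Col-0 (0.35, edgeR adjusted p = 0.00269), and ka120 ndr1 did not differ from Col-0.

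The balance between the 2 regulators does not depend on how libraries are scaled. Per exon length, GLK1 counts were 1.32 ± 0.214 times those of GLK2 in Col-0 and 2.31 ± 0.376 times in ka120 (SD, n = 3), with no overlap between libraries. In ka120 pad4 and ka120 ndr1 the ratio was 1.41 ± 0.221 and 1.57 ± 0.0934, in each case below every ka120 library and overlapping Col-0. The exact two-sided permutation test gave p = 0.1 for ka120 against Col-0, the smallest that 3 against 3 libraries allow, and 0.145 after Benjamini-Hochberg adjustment over the 84 ratio tests made.

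HEMA1 (chromosome 1, 21623700 to 21626402) encodes the main leaf glutamyl-tRNA reductase and had the largest fall of the 10 in ka120. Col-0 libraries held 1139.7, 1360.0 and 1165 CPM and ka120 libraries 488, 465 and 511 CPM. The log2 change was -1.32 ± 0.082 (adjusted p = 1.30e-07), and 5.08% of tested genes had a lower change. With pad4 the level was 435, 409 and 432 CPM, below all ka120 libraries but not past the test (-0.20 ± 0.081, adjusted p = 0.111). With ndr1 it was 676, 594 and 575 CPM, above all ka120 libraries (0.33 ± 0.081, adjusted p = 0.0352). This call was lost with a replicate block (adjusted p = 0.0516) and without any 1 of ka120 replicate 1, ka120 replicate 2, ka120 ndr1 replicate 1 or ka120 ndr1 replicate 2 (adjusted p = 0.0677 to 0.154). HEMA1 was the only one of the 10 that differed between the double mutants, with a log2 change of -0.53 ± 0.081 in ka120 pad4 against ka120 ndr1 (adjusted p = 0.00771), a comparison in which 0.886% of all genes were lower. Its paralogs were minor and did not pass the test. HEMA2 had 18.8 ± 0.741 CPM in Col-0 and 19.6 ± 2.13 CPM in ka120 (adjusted p = 0.657), and HEMA3 had 0.569 ± 0.226 and 0.699 ± 0.163 CPM (adjusted p = 0.609). By library totals alone HEMA2 passed as higher (0.39, adjusted p = 0.00613). Per exon length HEMA1 made up 98.3% ± 0.0887 of the family in Col-0 and 95.8% ± 0.622 in ka120.

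The 250 bases before each gene's annotated start were read from the TAIR10.1 genome and searched on both strands for 4 motifs. These were the G-box CACGTG, the CCAATC element reported for GLK binding, and the I-box GATAAG of light-responsive promoters. The fourth was a heptamer likewise linked to GLK factors, AGATTCC, also counted with T as its last letter, G as its first letter, or both. The HEMA1 window (chr1:21626403-21626652, minus strand) is shown because this gene fell most, with its 1 heptamer in capitals. The CHLH window (chr5:4392430-4392679, minus strand) is shown because this gene had the highest level of the 10. Its 1 heptamer, in capitals, lies on the opposite strand and so reads as its reverse complement.
HEMA1: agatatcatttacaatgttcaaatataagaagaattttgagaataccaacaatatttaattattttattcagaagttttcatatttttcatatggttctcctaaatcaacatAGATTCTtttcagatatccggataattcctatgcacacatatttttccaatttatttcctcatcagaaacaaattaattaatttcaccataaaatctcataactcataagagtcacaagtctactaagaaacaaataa
CHLH: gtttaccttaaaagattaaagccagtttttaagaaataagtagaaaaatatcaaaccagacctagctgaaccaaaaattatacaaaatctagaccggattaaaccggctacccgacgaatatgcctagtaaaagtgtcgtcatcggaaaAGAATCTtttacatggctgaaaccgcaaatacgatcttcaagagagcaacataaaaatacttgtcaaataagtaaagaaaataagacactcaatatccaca
Heptamers occurred in the windows of 3 of the 10 genes, HEMA1, CHLH and PORB, and in 12.1% of the windows of 27443 protein-coding genes. A match describes letters and is not evidence of binding.

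Magnesium chelatase inserts magnesium into protoporphyrin, and 3 of the genes encode its subunits or its stimulator. CHLH (chromosome 5, 4387307 to 4392429) encodes the large porphyrin-binding subunit and had 4124, 4519 and 4224 CPM in Col-0 against 2406, 2404 and 2647 CPM in ka120. Its log2 change was -0.79 ± 0.082 (adjusted p = 5.67e-06). The double mutants reached 3029.7, 2391 and 2772 CPM with pad4 and 2970.1, 2856 and 3072 CPM with ndr1, again well under Col-0. With ndr1 all libraries were above those of ka120, but the difference of 0.25 ± 0.081 did not pass (adjusted p = 0.0824).

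GUN4 (chromosome 3, 21948501 to 21949796), a porphyrin-binding protein that stimulates the chelatase, had 389.6, 427 and 389 CPM in Col-0 and 194, 193 and 229 CPM in ka120, a change of -0.97 ± 0.099 (adjusted p = 5.19e-06). It hardly moved with the second mutation, at 233, 181 and 206 CPM with pad4 and 239, 206 and 227 CPM with ndr1, ranges that overlap those of ka120. The GUN4 locus overlaps AT3G59410 on the other strand by 946 bases. That gene also fell, from 101 ± 6.10 to 62.7 ± 5.0 CPM, by 0.69 on the log2 scale (adjusted p = 2.03e-05). The libraries were strand-specific, but how the counting treated strand is not stated in any label or header, and how far the 2 loci share reads was not tested.

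CHLI1 (chromosome 4, 10201672 to 10203469) encodes the main ATPase subunit of the chelatase and showed the smallest fall of the 8, from 848, 893 and 830.0 CPM in Col-0 to 576, 545 and 619.6 CPM in ka120. The change was -0.56 ± 0.063 (adjusted p = 1.11e-05). It rose again with pad4, to 742, 685 and 723 CPM, above every ka120 library (0.30 ± 0.063, adjusted p = 0.00677). With ndr1 it had 637, 612 and 666 CPM, which overlapped ka120 (0.14 ± 0.063, adjusted p = 0.214). The other chelatase genes moved along: the paralog CHLI2 went from 111 ± 3.97 to 77.2 ± 6.13 CPM (-0.52 ± 0.080, adjusted p = 0.000137) and CHLD from 365 ± 6.18 to 235 ± 19.6 CPM (-0.64 ± 0.095, adjusted p = 0.000114). Per exon length CHLI1 kept 88.1% ± 0.0829 of the CHLI family in Col-0 and 87.8% ± 0.199 in ka120.

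Protochlorophyllide oxidoreductases (POR) catalyse the light-dependent step to chlorophyllide. PORA serves mainly the greening of dark-grown seedlings, while PORB and PORC act in green leaves. PORC (chromosome 1, 907523 to 909650) had 369, 389 and 362 CPM in Col-0 and 217, 217 and 245 CPM in ka120, a change of -0.72 ± 0.060 (adjusted p = 1.07e-06). With pad4 it rose to 292, 281 and 288 CPM, above all ka120 libraries (0.34 ± 0.060, adjusted p = 0.00335). With ndr1 it stood at 255, 259 and 251 CPM, between the 2 and not past the test against ka120 (0.17 ± 0.060, adjusted p = 0.106). PORC and CHLI1 were the 2 genes of the 10 that rose with pad4, and both stayed below every Col-0 library there.

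PORB (chromosome 4, 13725546 to 13727440) fell further. It had 126, 139 and 135 CPM in Col-0 and 64.7, 55.0 and 73.1 CPM in ka120, a change of -1.05 ± 0.12 (adjusted p = 1.40e-05). Neither double mutant brought it up: the values were 62.7, 45.6 and 52.7 CPM with pad4 and 61.8, 58.8 and 69.3 CPM with ndr1. Against ka120 these were -0.26 ± 0.12 (adjusted p = 0.165) and -0.022 ± 0.12 (adjusted p = 0.937), neither past the threshold. Per exon length, PORB counts were 0.389 ± 0.0169 of PORC counts in Col-0, 0.309 ± 0.0282 in ka120, 0.270 ± 0.0275 in ka120 ndr1 and 0.203 ± 0.0287 in ka120 pad4. The Col-0 libraries did not overlap those of any mutant in this ratio, for each of which the exact two-sided permutation p was 0.1, the smallest possible, and 0.145 adjusted over 84 tests.

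PORA (chromosome 5, 21990864 to 21992814) was near the lower limit of these libraries, with 55 to 265 counts in a library. Col-0 had 2.38, 1.58 and 2.89 CPM and ka120 had 3.11, 2.76 and 2.77 CPM, overlapping ranges (0.33 ± 0.26, adjusted p = 0.305). In ka120 pad4 it had 0.913, 0.970 and 0.754 CPM, below every library of the other genotypes but 1 of ka120 ndr1, and the log2 change against ka120 was -1.71 ± 0.27 (adjusted p = 0.00231). In ka120 ndr1 it had 1.74, 0.942 and 1.61 CPM, a change of -1.01 ± 0.26 against ka120 (adjusted p = 0.0451). The order of its means was ka120, Col-0, ka120 ndr1 and ka120 pad4, and no neighbours in that order differed by the test.

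The windows before PORA (chr5:21992815-21993064, minus strand) and PORB (chr4:13725360-13725545, plus strand) are shown because these related genes moved differently. The PORB window has only 186 bases, since AT4G27435 reaches to its left end. Capitals mark the I-box of PORA, which reads on the opposite strand, and the CCAATC element of PORB.
PORA: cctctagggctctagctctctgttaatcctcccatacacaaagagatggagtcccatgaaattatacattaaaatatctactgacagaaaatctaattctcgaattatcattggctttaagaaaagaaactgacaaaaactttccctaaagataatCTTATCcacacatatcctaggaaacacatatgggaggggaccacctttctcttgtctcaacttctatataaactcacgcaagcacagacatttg
PORB: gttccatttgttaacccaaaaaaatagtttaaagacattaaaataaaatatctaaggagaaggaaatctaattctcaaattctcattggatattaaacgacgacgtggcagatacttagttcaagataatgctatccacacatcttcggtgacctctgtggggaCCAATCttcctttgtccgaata
The longest run of letters common to both is aaatctaattctc, 13 bases, which begins 162 bases before the start of PORA and 123 bases before that of PORB. In the 64 bases left out, PORB has a further CCAATC element and 1 heptamer. CCAATC was in 2 of the 10 windows, PORB and GUN4, against 10.2% of all protein-coding genes. It was in 10 of the 18 windows of antenna genes, which is 55.6%. All 250 bases of the GUN4 window lie within the gene AT3G59410 on the other strand.

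CAO (chromosome 1, 16848308 to 16851271, named CH1 in the reference) encodes chlorophyllide a oxygenase, which makes chlorophyll b. It had 314, 362 and 337 CPM in Col-0 and 157, 159 and 179 CPM in ka120, a change of -1.03 ± 0.11 (adjusted p = 5.68e-06). The double mutants gave 195, 152 and 167 CPM with pad4 and 169, 151 and 192 CPM with ndr1. CAO thus had 1 level in Col-0 and a lower one in all 3 mutants, which overlapped each other. Against ka120 the change was 0.054 ± 0.11 with pad4, with an approximate 95% interval of -0.18 to 0.29, and 0.051 ± 0.11 with ndr1, with an interval of -0.18 to 0.28. Its window (chr1:16851272-16851521, minus strand) is shown because it alone of the 10 holds G-boxes, 2 of them, in capitals, against 6.49% of protein-coding genes with any.
CAO: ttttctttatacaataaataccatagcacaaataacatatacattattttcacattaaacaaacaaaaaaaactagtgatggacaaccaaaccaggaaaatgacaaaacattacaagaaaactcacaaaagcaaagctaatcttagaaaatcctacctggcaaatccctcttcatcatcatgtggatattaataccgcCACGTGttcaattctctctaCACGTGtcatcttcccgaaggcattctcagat
I-boxes were found before GLK1 and PORA, against 12.3% of all protein-coding genes. GLK2, CHLI1 and PORC had none of the 4 motifs in these windows, which says only that these letters are missing there. All 250 bases of the PORC window lie within the gene AT1G03620, and 122 bases of the CHLI1 window lie within AT4G18490.

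Levels of different genes were compared per kilobase of exon, as CPM per kb. In Col-0 the order was CHLH at 902 ± 43.2, CHLI1 at 533 ± 20.2, HEMA1 at 529 ± 52.2, GUN4 at 310.1 ± 17.0, PORC at 209 ± 7.84, CAO at 146 ± 10.3, GLK1 at 121 ± 5.87, GLK2 at 93.7 ± 15.7, PORB at 81.2 ± 4.11 and PORA at 1.38 ± 0.397 CPM per kb. CHLI1 and HEMA1 did not differ beyond their spread. In ka120 that changed, with CHLI1 at 361 ± 23.2 and HEMA1 at 211 ± 9.86 CPM per kb. GLK1, at 123 ± 8.57 CPM per kb in ka120, came level with PORC at 127 ± 9.19 and passed CAO at 71.2 ± 5.27. Within the POR family, per exon length, PORC made up 71.7% ± 0.911 in Col-0, 75.6% ± 1.64 in ka120, 78.4% ± 1.75 in ka120 ndr1 and 82.9% ± 1.95 in ka120 pad4. PORB made up 27.9% ± 0.862 of the family in Col-0 and 16.8% ± 1.97 in ka120 pad4.

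**Figure D2:**
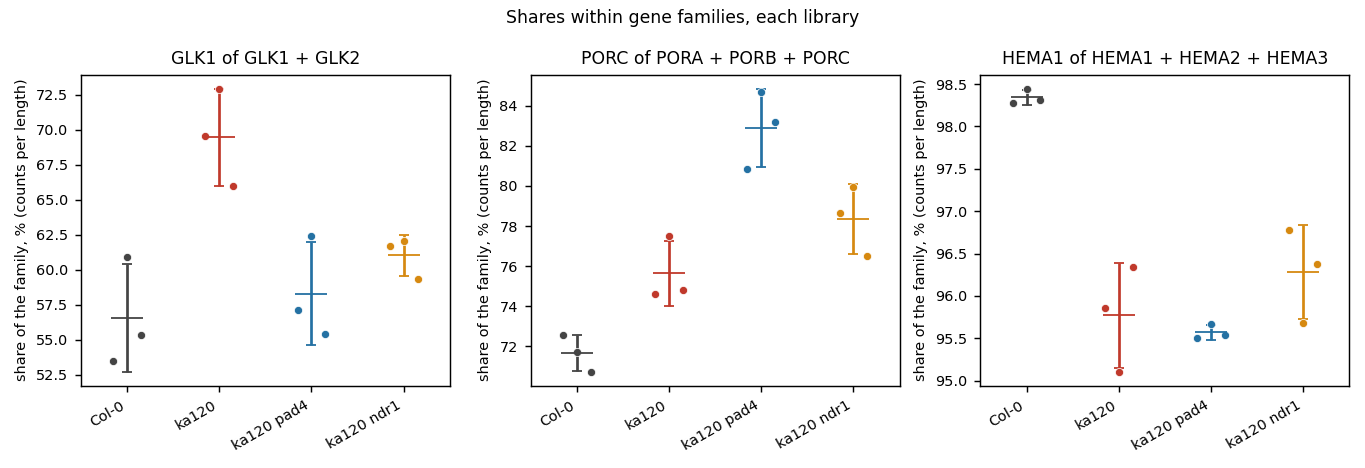
Share of GLK1 in the GLK pair, of PORC in the POR family and of HEMA1 in the HEMA family, in percent of counts per exon length (axes do not start at 0). Points are libraries, lines are means and bars are SD of 3. GLK1 stands at 56.6% ± 3.85 in Col-0 and 69.5% ± 3.47 in ka120, and PORC is highest in ka120 pad4.

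The double mutants were compared with ka120 to see which of these levels differ when PAD4 or NDR1 is also mutated. With pad4, 4 of the 10 genes differed: CHLI1 and PORC rose, where 9.83% of all genes were higher, and GLK1 (-0.51 ± 0.076, adjusted p = 0.00185) and PORA fell, where 8.39% were lower. The other 6 did not pass, and for CHLH and GUN4, for example, the approximate 95% intervals of -0.041 to 0.31 and -0.20 to 0.23 lie below the differences between Col-0 and ka120. By library totals alone 6 of the 10 differed with pad4, since HEMA1 (-0.28, adjusted p = 0.0180) and PORB (-0.34, adjusted p = 0.0468) also passed as lower. With ndr1, 3 of the 10 differed: HEMA1 rose, where 3.2% of all genes were higher, and GLK1 (-0.30 ± 0.076, adjusted p = 0.0381) and PORA fell, where 2.74% were lower. These 3 calls were fragile. Without ka120 replicate 1, ka120 replicate 2, ka120 ndr1 replicate 1 or ka120 ndr1 replicate 2 the number was 0, without ka120 ndr1 replicate 3 it was 1, and without ka120 replicate 3 it was 3.

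Against Col-0, which both comparisons share, the genes stayed low in the double mutants. In ka120 pad4 all 10 were lower, where 20.3% of all genes were, with changes from -0.26 (CHLI1) to -1.52 (HEMA1). In ka120 ndr1 9 were lower, where 23.5% of all genes were, from -0.28 (GLK1) to -1.07 (PORB). PORA there had -0.68 ± 0.27 (adjusted p = 0.0524). Side by side, the change from Col-0 in ka120, ka120 pad4 and ka120 ndr1 was -1.32, -1.52 and -0.99 for HEMA1. It was -1.03, -0.98 and -0.98 for CAO, and -0.97, -0.96 and -0.84 for GUN4. For PORC it was -0.72, -0.38 and -0.55, and for CHLI1 -0.56, -0.26 and -0.43, weakest with pad4. Scaled by library totals alone, 4 of these calls were lost: CHLI1 (-0.012, adjusted p = 0.871) and PORC (-0.13, adjusted p = 0.0510) in ka120 pad4, and GLK1 (0.0006, adjusted p = 0.996) and GLK2 (-0.28, adjusted p = 0.0599) in ka120 ndr1, with GLK1 turning in sign.

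**Figure D3:**
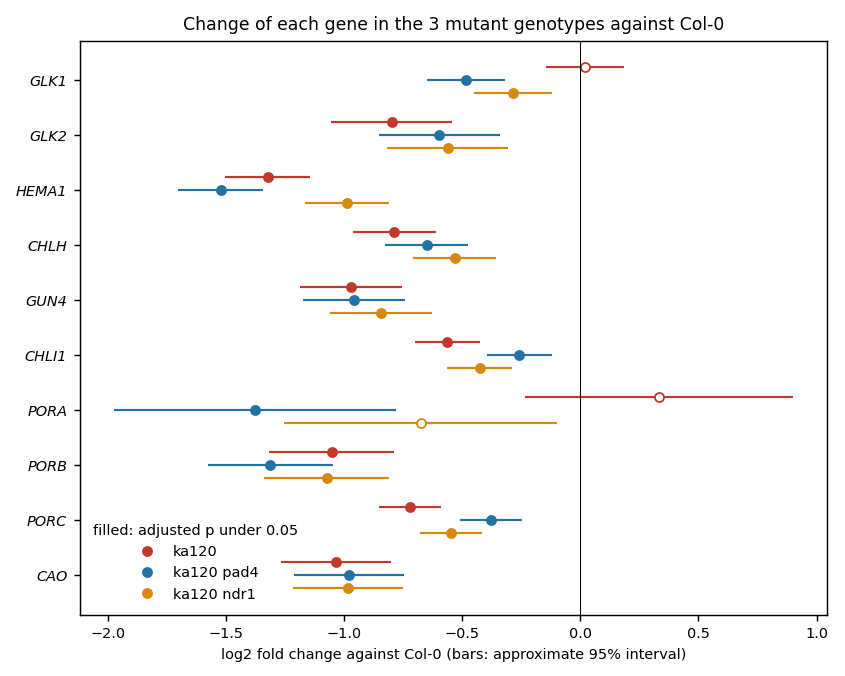
Log2 fold change of each gene in the 3 mutant genotypes against the same Col-0 libraries, with bars for the approximate 95% interval. Filled points have an adjusted p under 0.05 (edgeR). In ka120 8 genes lie below 0 with GLK1 at 0.021, and PORC and CHLI1 lie nearest 0 in ka120 pad4.

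The rest of the pathway was read from a list of 27 other genes of chlorophyll synthesis, of which 26 were tested (HEMB2 had 0 counts in every library). In ka120 22 of them fell and 0 rose, with a median of -0.46, where 27% of all genes were lower and 28% higher. This count depends on scale, since library totals alone gave 13 lower and 2 higher with a median of -0.14. The 4 largest falls were in CHLP, the geranylgeranyl reductase that makes the phytyl tail (2540.4 ± 127 to 1190.2 ± 104 CPM, -1.09 ± 0.081, adjusted p = 4.00e-07), and CHLG, the chlorophyll synthase (317 ± 1.86 to 155 ± 10.2 CPM, -1.03 ± 0.077, adjusted p = 4.50e-07). They were followed by CHL27, a subunit of the cyclase that closes the fifth ring (2569.8 ± 191 to 1270.0 ± 67.2 CPM, -1.02 ± 0.083, adjusted p = 8.85e-07), and HEMG1, protoporphyrinogen oxidase (245 ± 8.18 to 125 ± 7.70 CPM, -0.97 ± 0.076, adjusted p = 6.49e-07). HEMA2 and HEMA3 were among the 4 that did not pass, with GSA2 and HEMF1, 2 names chosen after their values were seen.

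Against ka120, 11 of the 26 rose and 0 fell with pad4, where 9.83% of all genes were higher. With ndr1 5 rose and 0 fell, where 3.2% of all genes were higher. Both counts moved with single libraries. With pad4 the count was 4 without ka120 replicate 1, ka120 replicate 2 or ka120 pad4 replicate 1, 7 without ka120 pad4 replicate 3, and 14 or 15 otherwise. With ndr1 it was 0 without ka120 replicate 1, ka120 replicate 2 or ka120 ndr1 replicate 1, 2 without ka120 ndr1 replicate 2 or 3, and 5 without ka120 replicate 3. Against Col-0, 13 of the 26 were lower in ka120 pad4, where 20.3% of all genes were. In ka120 ndr1 16 were lower, where 23.5% of all genes were, and 0 were higher in either genotype. By library totals alone 10 were lower and 5 higher in ka120 pad4, with a median of 0.062, and 9 were lower and 3 higher in ka120 ndr1, with a median of -0.036. The double mutants differed from each other in 0 of the 26 by edgeR and in 3 by DESeq2.

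**Figure D4:**
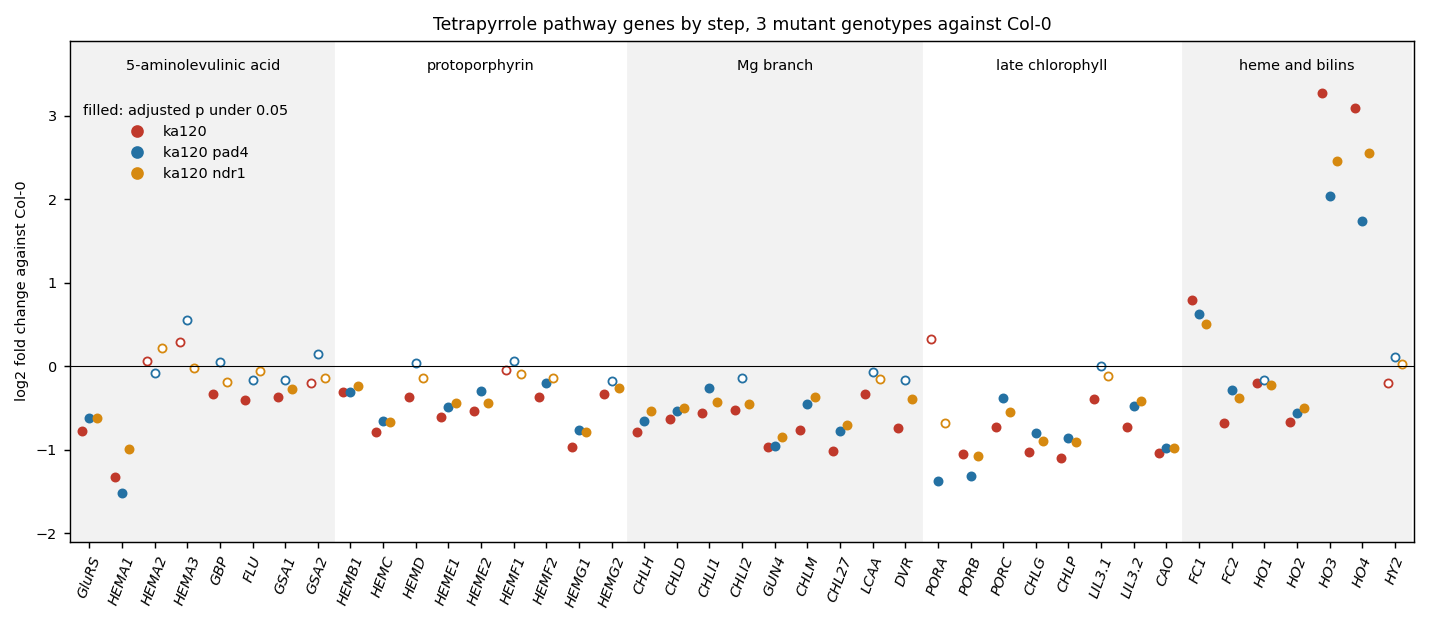
Log2 fold change against Col-0 of genes ordered along the pathway, from 5-aminolevulinic acid to the late chlorophyll steps and the heme and bilin branch, in the 3 mutant genotypes. Filled points have an adjusted p under 0.05 (edgeR). Most chlorophyll genes lie below 0, while FC1, HO3 and HO4 of the heme and bilin branch lie above it in all 3 mutants.

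The branch from protoporphyrin to heme and bilins moved in both directions. Of its 7 genes, 3 rose and 3 fell in ka120 (3 and 2 by library totals alone), where 28% of all genes were higher and 27% lower. All names here were chosen after their values were seen. FC1, a ferrochelatase that acts throughout the plant, had 35.5, 37.8 and 34.5 CPM in Col-0 and 64.5, 70.2 and 52.1 CPM in ka120 (0.79 ± 0.11, adjusted p = 5.20e-05). FC2, the ferrochelatase of green tissue, went the other way, from 146, 162 and 144 to 92.2, 91.3 and 98.8 CPM (-0.68 ± 0.084, adjusted p = 2.46e-05). The FC1 libraries rose and the FC2 libraries fell without overlap between genotypes. HO3 and HO4, minor heme oxygenases, were scarce in Col-0 at 1.04, 1.52 and 2.51 and 0.488, 0.978 and 0.922 CPM and reached 18.4, 19.0 and 11.9 and 8.40, 6.94 and 5.16 CPM in ka120. Their changes were 3.27 ± 0.32 (adjusted p = 3.54e-06) and 3.1 ± 0.41 (adjusted p = 4.33e-05). With pad4 both fell against ka120, with log2 changes of -1.23 ± 0.29 (adjusted p = 0.0119) and -1.35 ± 0.37 (adjusted p = 0.0251), whereas FC1 did not pass (-0.16 ± 0.11, adjusted p = 0.342).

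The 3 genes of the route from chlorophyll b back to a also changed in ka120, where 54.9% of all genes passed in either direction. NOL and NYC1 encode chlorophyll b reductases, and HCAR the following hydroxymethyl reductase. NOL had 35.0, 41.1 and 35.2 CPM in Col-0 and 7.05, 8.86 and 8.83 CPM in ka120 (-2.17 ± 0.14, adjusted p = 1.47e-07). HCAR fell and NYC1 rose, with log2 changes of -0.99 ± 0.13 and 0.21 ± 0.063 (adjusted p = 3.14e-05 and 0.0124). Antenna genes, which encode the chlorophyll-binding proteins of the photosystems, fell in 18 of 18 cases in each mutant against Col-0, also by library totals. On the TMM scale the antenna median was -1.06 in ka120, and the summed antenna level was 100181 to 109688 CPM in Col-0 against 48681 to 54415 CPM. CAB3 is both an antenna gene and a mesophyll marker here.

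Of 18 further regulators of the pathway, 17 were tested (ABI4 had 0 counts), and in ka120 7 fell and 3 rose, where 27% of all genes were lower and 28% higher. The 4 largest changes on the TMM scale were in phytochrome-interacting factors, some of which repress chlorophyll synthesis genes in dark-grown seedlings. PIF4 went from 72.1, 90.4 and 82.5 CPM in Col-0 to 25.0, 22.4 and 25.8 CPM in ka120 (-1.74 ± 0.097, adjusted p = 6.14e-08), and PIF1 from 27.9, 34.0 and 28.2 to 9.45, 8.19 and 11.5 CPM (-1.62 ± 0.21, adjusted p = 2.97e-05). PIF7 and PIF5 also fell, with log2 changes of -0.73 ± 0.086 and -0.52 ± 0.067 (adjusted p = 1.62e-05 and 3.24e-05). The 3 that rose, named after their values were seen, were HY5 (0.48 ± 0.088), GUN1 (0.21 ± 0.078) and HYH (0.15 ± 0.057), with adjusted p of 0.000552, 0.0378 and 0.0474. Library totals alone gave 4 lower and 6 higher in this list. On that scale PIF4 (-1.41) and PIF1 (-1.30) still changed most, but HY5 (0.81), CGA1 (0.63), GUN1 (0.54), BZR1 (0.51) and HYH (0.47) exceeded PIF7 (-0.41) and PIF5 (-0.19).

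The genes most like a given one were found from the 4 genotype means of log2 CPM, each profile centred on its own mean, by the root mean square (RMS) difference among 14888 genes with at least 5 CPM on average. This is a description over 4 genotypes. For HEMA1 the nearest were EXPA11 (RMS 0.046), the clock-related factor RVE1 (0.058) and AT3G23080 (0.058), and PORB ranked 21. CHLH was nearest to G6PD1 (RMS 0.0073), CLV1 (0.011) and ERDL6 (0.011), with GLK2 at rank 18. GLK2 was nearest to AT5G19940 (RMS 0.0091), cICDH (0.0096) and AT1G17200 (0.014), with CHLH at rank 31. For GLK1 the nearest were WNK4 (RMS 0.017), EBS1 (0.030) and AT5G39590 (0.030), and of the 8 other genes with enough counts the closest, CHLI1, ranked 8457.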

How the data were processed

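RNA was measured in 12 leaf libraries. The submitters' processing notes name the tools HISAT2 2.0.4 and HTSeq 0.6.1p1 and the build TAIR10, but not their roles, the strand setting or the annotation release. Values of the raw table deposited by the authors were handled like estimated counts (expected counts per gene); they are whole numbers, of which 45.7% to 48.1% of those from 4 to 40 are multiples of 4, for a reason not known. A second table deposited by the authors holds log2 values of 22605 genes, each the log2 of the count plus 0.5 over a constant per library, used here only in 1 alternative.

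Counts were tested in R 4.3.3 with edgeR 4.0.16 (quasi-likelihood F test, TMM, default filter on low counts), in 1 model of 4 genotypes for 12 libraries with 8 residual degrees of freedom and 6 comparisons. The method was tested on simulated data. Standard errors are the absolute log2 change over the square root of F. Alternatives used DESeq2 1.42.0, limma 3.58.1, other scaling and filters, left-out libraries and a replicate block. Coordinates, symbols and sequences come from TAIR10.1 (NCBI RefSeq), which matched 32548 identifiers, and positions are 1-based. Figures were drawn with matplotlib 3.10.9.

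The 10 genes, the lists and the tests were chosen with earlier results of these data known. Named were all 10 genes, from the other pathway and regulator lists the 4 called genes with the largest change in ka120, paralogs, and the 3 nearest genes of GLK1, GLK2, HEMA1 and CHLH; others are marked in the text.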

Additional observations from a re-analysis of the deposited data

How the results depend on the processing

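Over 15 alternatives per change, 849 of 900 values for the 10 genes kept their direction and their side of the threshold, 22 lost the call, 12 gained one and 17 changed sign. All 8 calls in ka120 against Col-0 held under every alternative run. Scaling by library totals alone moved the share of higher among called genes from 50.9% to 77.7% in ka120 against Col-0, 53.9% to 34% in ka120 pad4 against ka120, 53.9% to 41.2% in ka120 ndr1 against ka120, 51.5% to 80.3% and 51.5% to 79.1% for the double mutants against Col-0, and 63% to 47.8% between them. It turned GUN4 (-0.073) and CAO (-0.030) in ka120 pad4 against ka120, GLK1 in ka120 ndr1 against Col-0 (0.0006) and CAO between the double mutants (-0.037), and left 7 other pathway genes called with pad4. Fits of only the 2 genotypes compared gave, against ka120, 4 other pathway genes and 2634 genes in all with pad4, and 1 of the 10 genes and 3 other pathway genes with ndr1 (share higher 42.7%). Between the double mutants that fit gave 76 genes (share higher 80.3%) and CAO at -0.0010. DESeq2 called 2596 genes for ka120 ndr1 against ka120, and 1490 genes with 3 other pathway genes between the double mutants, where edgeR called 1327, 535 and 0 (4012 genes there had an unadjusted p under 0.05). Leaving out 1 library at a time gave, with ndr1 against ka120, 0 to 3 of the 10 genes, 0 to 5 other pathway genes and 136 to 2232 genes in all. With pad4 against ka120 it gave 4 to 15 other pathway genes and 1885 to 4764 in all, and between the double mutants 0 to 1 and 150 to 934. Uncalled changes that crossed 0 ranged from -0.018 to 0.084 (GLK1, ka120 against Col-0), -0.084 to 0.097 (GUN4, pad4 against ka120), -0.049 to 0.13 (CAO, pad4 against ka120), -0.12 to 0.075 (PORB, ndr1 against ka120), -0.046 to 0.13 (CAO, ndr1 against ka120), -0.094 to 0.040 (GLK2, between double mutants) and -0.10 to 0.095 (CAO, between double mutants). Same-numbered libraries of different genotypes deviated together with correlations of -0.055 to 0.11 over 18 pairs, 1 of them over 0.1, so the numbers are not taken to pair samples; with a replicate block 58 of 60 results stayed on their side of the threshold, HEMA1 with ndr1 against ka120 was lost (adjusted p = 0.0516), PORA in ka120 ndr1 against Col-0 was gained (adjusted p = 0.0476) and ka120 against Col-0 had 12168 calls. The causes were not tested. Intervals here cover the spread between libraries, and PORA, at 55 to 265 counts, is the gene most limited by depth.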

Other observations

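In the TAIR10.1 annotation HEMA1 lies 1355 bases from the heme oxygenase gene HO4 on chromosome 1, with the same orientation. The gap between them holds 0 complete genes. HEMA1 counts fell in ka120 (-1.32 ± 0.082 on the log2 scale) while HO4 rose (3.1 ± 0.41). Per exon length, HO4 counts went from 0.00121 ± 0.000361 to 0.0264 ± 0.00680 of HEMA1 counts (SD, n = 3), with no overlap between libraries. A second heme oxygenase gene, HO3, lies 3039 bases from HEMB1, which encodes 5-aminolevulinic acid dehydratase. That gap also holds 0 complete genes. Genes that overlap an end of a gap were not counted in either pair, so direct neighbourhood is not shown. HO3 rose (3.27 ± 0.32) and HEMB1 fell from 209 ± 4.8 to 168 ± 8.16 CPM (-0.31 ± 0.060, edgeR adjusted p = 0.000768). By library totals alone HEMB1 did not pass (0.014, adjusted p = 0.843). These pairs were noticed after the values were seen.

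Several pathway genes are known to follow the circadian clock, and the hour of harvest is not given. Of 9 clock genes, 3 were lower and 2 higher in ka120 against Col-0, 4 lower and 2 higher in ka120 pad4 and 1 lower and 2 higher in ka120 ndr1, where 54.9%, 42% and 48.4% of all genes were called in either direction. By library totals alone the counts were 1 lower and 4 higher, 2 lower and 2 higher, and 1 lower and 3 higher. Their part in the levels of the 10 genes was not tested.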
